A study of Caenorhabditis elegans with 2 samples.

Results

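The 35 C. elegans synapse and neurotransmission genes described here were listed by name, out of 19973 nuclear protein-coding genes in the annotation. They comprise 7 active zone genes, 4 fusion genes, 3 calcium channel genes, 7 vesicle cycle genes, 9 transmitter identity genes, 3 dense core vesicle genes and 2 adhesion genes. Binding of the transcription factor SOX-2 near them was read from peak lists of a chromatin immunoprecipitation sequencing (ChIP-seq) experiment. A single group of 2 biological replicates was made from embryos of strain RW12244, collected by egg bleaching, labelled late embryonic and given an age of 3.5 hours. All of these animals carry a CRISPR insertion in the endogenous sox-2 gene on chromosome X, the allele st12244, which fuses SOX-2 to TY1, EGFP and 3xFLAG tags. The tagged protein was precipitated with an anti-GFP antibody. No second condition, untagged strain or control library was analysed here, so the comparisons below are between genes within the same libraries and carry no p-value.

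A gene was counted as having a summit when the highest point of a peak lay inside it or within 5000 bp of any of its annotated 5′ ends. The ranked list of the series, made by the authors from both replicates, holds 8486 peaks with their summit on a nuclear chromosome. The thresholded list holds 677 peaks with an irreproducible discovery rate (IDR, low for a peak that stands high in both of the rankings compared) of at most 1.0%. Of these, 660 have a nuclear summit, while 756 nuclear ranked summits have an IDR of at most 1.0%, so the list leaves some out. Of the 35 genes, 23 (65.7%) had a ranked summit and 3 (8.57%) a thresholded one. Over all nuclear protein-coding genes the shares were 53% and 7.09%. The ranked list is permissive, and 70% of its nuclear summits have an IDR above 50%. Since whole embryos were used, a weak peak in every cell and a strong peak in a few cells cannot be told apart.

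SOX-2 belongs to the SoxB group of HMG-box transcription factors, which bind short DNA sites with a CATTGT or CTTTGT core and are known for keeping neural progenitors in an undifferentiated state. In C. elegans, sox-2 is also needed for the terminal differentiation of particular neurons. At a chemical synapse, active zone scaffolds hold vesicles near calcium channels, SNARE proteins fuse them with the membrane, endocytic proteins recover them, and each neuron's set of synthetic enzymes and vesicular transporters fixes which transmitter it releases. Most of these genes are switched on as neurons mature.

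Sequences were taken at the 3 thresholded summits and at 3 other summits of high signal. All are plus-strand sequences of the NCBI RefSeq WBcel235 genome, the same assembly as the ce11 build of the peak lists, and run from 50 bp before the summit. In the cat-1 sequence at chrX:5708005-5708109 the capitals mark a tRNA-Ser gene. In the unc-104 sequence at chrII:7001559-7001698 they mark a tRNA pseudogene. In the egl-19 sequence at chrIV:7402052-7402152 they mark the SOX core CATTGT, which starts 48 bp before the summit. The syd-2 sequence at chrX:10555562-10555662, the elks-1 sequence at chrIV:3350317-3350417 and the unc-10 sequence at chrX:7284846-7284946 hold no core and have no capitals.
cat-1: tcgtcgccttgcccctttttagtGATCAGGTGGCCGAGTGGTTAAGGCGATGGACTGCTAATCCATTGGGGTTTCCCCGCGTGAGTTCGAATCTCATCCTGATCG
unc-104: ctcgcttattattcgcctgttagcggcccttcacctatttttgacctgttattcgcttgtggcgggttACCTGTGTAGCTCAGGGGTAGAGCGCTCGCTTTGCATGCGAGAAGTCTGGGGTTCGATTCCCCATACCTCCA
syd-2: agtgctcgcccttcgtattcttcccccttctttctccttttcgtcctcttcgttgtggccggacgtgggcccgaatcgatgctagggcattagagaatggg
elks-1: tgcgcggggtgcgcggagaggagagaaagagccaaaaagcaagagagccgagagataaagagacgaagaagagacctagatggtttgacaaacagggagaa
egl-19: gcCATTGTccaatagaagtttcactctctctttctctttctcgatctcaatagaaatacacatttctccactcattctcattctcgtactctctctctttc
unc-10: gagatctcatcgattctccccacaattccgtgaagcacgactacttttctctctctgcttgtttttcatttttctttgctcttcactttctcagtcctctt

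The strongest peak at any of the 35 genes lay in cat-1 (WBGene00000295), which encodes the vesicular monoamine transporter that loads dopamine and serotonin into vesicles. Its signal was 120 in replicate 1 and 86.4 in replicate 2 (103 ± 24.0, SD, n = 2). In the list made from both replicates the authors gave it a signal of 208, rank 91 in that list, with an IDR of 0.001%. The peak spans chrX:5708000-5708076, only 77 bp, where most peaks at these genes are 284 bp wide. Its summit lies 2570 bp downstream of the nearest cat-1 5′ end, in an intron of 1844 bp. It falls on base 28 of the 82 bases of E03E2.t1, a tRNA-Ser gene on the opposite strand to cat-1.

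A second tRNA-Ser gene, E03E2.t2, starts 1347 bp from the first in the same intron, and 0 of their 82 bases differ. The genome holds 7 exact copies of this sequence. No ranked summit lay within 500 bp of E03E2.t2 in the series list or in either replicate's own list. Of the windows of 36 bases within 100 bp of the cat-1 summit, 37.3% occur more than once in the nuclear genome. Not given in the sources used here is how the authors placed reads that match several copies. Among the 118 thresholded nuclear summits within 500 bp of a tRNA gene, whose median signal was 130, the cat-1 peak ranked 12th. The part of the tRNA gene in the cat-1 signal was not tested.

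The next strongest peak lay in unc-104 (WBGene00006831), the kinesin motor that carries synaptic vesicle precursors along axons. Its signal was 57.7 in replicate 1 and 80.5 in replicate 2 (69.1 ± 16.1, SD, n = 2), and 144 in the list of both replicates, with an IDR of 0.00652%. The peak spans chrII:7001467-7001750, in an intron of 4567 bp, and its summit is 5677 bp downstream of the nearest unc-104 5′ end. The tRNA pseudogene C52E12.t1 starts 18 bp beyond the summit. Within 100 bp, 64.5% of the windows of 36 bases are repeated in the genome, although the pseudogene as a whole occurs only 1 time in the nuclear genome. Farther downstream, unc-104 also holds the tRNA-Ala gene C52E12.t3 and the tRNA-Thr gene C52E12.t2, and neither had a ranked summit of the series list within 500 bp. In the replicates' own ranked lists the strongest summit within 500 bp of either was 22.0 in replicate 1 and 17.1 in replicate 2. A weaker ranked summit, with a signal of 43.1 (20.5 in replicate 1 and 22.5 in replicate 2), lay 23 bp inside the gene's 5′ end, and another of 37.1 lay 1825 bp upstream. The part of the pseudogene or of repeated sequence in the 144 signal was not tested.

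The third thresholded peak lay just upstream of syd-2 (WBGene00006364), which encodes liprin-alpha, a scaffold that assembles the active zone. Its signal was 37.5 in replicate 1 and 56.4 in replicate 2 (46.98 ± 13.4, SD, n = 2), and 92.7 in the list of both replicates, with an IDR of 0.133%. The peak spans chrX:10555470-10555753, with its summit 373 bp upstream of the nearest syd-2 5′ end and inside the non-coding RNA gene F59F5.9. None of the windows of 36 bases around it is repeated, and the nearest tRNA gene is 111410 bp away. Of the 3, only the syd-2 peak lies in a promoter-proximal position, from 1000 bp upstream to 200 bp downstream of a 5′ end, and only it has no tRNA gene or tRNA pseudogene within 500 bp.

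All 3 peaks were also in the authors' thresholded list of each replicate alone and in their conservative list. In the replicates' own thresholded lists the same 3 of 35 genes (8.57%) had a summit, beside 5.88% of all genes in replicate 1 and 6.03% in replicate 2. Without summits within 500 bp of a tRNA gene, 2 of the 35 genes (5.71%), unc-104 and syd-2, had a thresholded summit, beside 6.05% of all genes. Leaving out summits near tRNA pseudogenes too, a step chosen after seeing the data, 1 of the 35 genes (2.86%), syd-2, had a thresholded summit, beside 5.99% of all genes. None of the 3 holds CATTGT or CTTTGT within 50 bp of its summit on either strand. Of all 660 thresholded nuclear summits, 20.2% hold such a core.

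**Figure D1:**
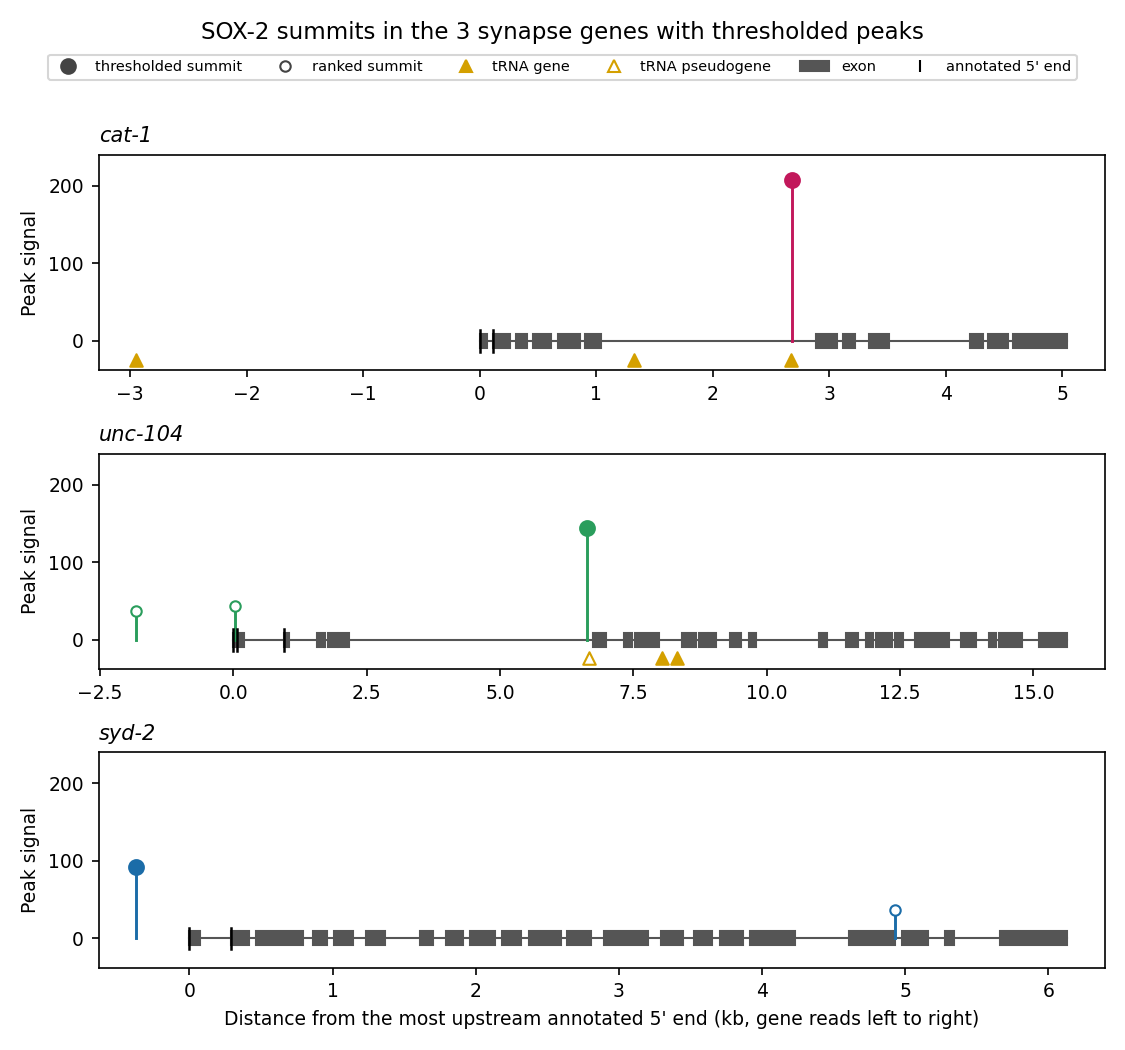
Ranked summits in cat-1, unc-104 and syd-2: horizontal position is the distance in kb from the most upstream annotated 5′ end, with each gene drawn left to right, and height is the authors' peak signal in the list of both replicates. The tall filled summits of cat-1 (208) and unc-104 (144) stand over a tRNA gene and beside a tRNA pseudogene (triangles) within introns, while that of syd-2 (92.7) stands just upstream of the gene.

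Among the active zone genes, 6 of 7 (85.7%) had a ranked summit, beside 53% of all genes. The median length searched was 15.3 kb for this role, and 70.3% of all genes with 14 to 20 kb searched had one. There were 12 active zone summits in all, with signals between 34.1 and 92.7 (median 39.5). Just outside the IDR threshold was a summit 340 bp upstream of elks-1 (WBGene00018330), which encodes an ELKS scaffold protein. It had a signal of 33.1 in replicate 1 and 36.8 in replicate 2 (34.96 ± 2.64, SD, n = 2), and 73.3 in the list of both replicates, with an IDR of 1.82%. The peak spans chrIV:3350225-3350508, and the nearest tRNA gene is 174452 bp from its summit. Both of the strongest active zone summits, at syd-2 and elks-1, were thus promoter-proximal and free of repeated windows. A further 2 elks-1 summits in an intron, of 40.9 and 39.9, were matched within 100 bp in replicate 2 alone (30.2 and 24.7).

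Upstream of unc-10, which encodes the RIM scaffold, a summit of 59.6 lay 4574 bp from the 5′ end, with 34.6 in replicate 1 and 20.2 in replicate 2. A second unc-10 summit of 49.7, 258 bp inside the gene, was matched in replicate 2 alone (27.7). The strongest sad-1 summit, at a presynaptic kinase gene, had a signal of 39.03, with 21.3 in replicate 1 and 20.5 in replicate 2. The other genes of this role were near the floor of the ranked list, whose lowest signal is 32.7. The one unc-13 summit, in the Munc13 priming factor gene, reached 35.9 and was matched in replicate 2 alone (18.8). At syd-1, which encodes a RhoGAP-like organiser of the presynapse, the strongest of 2 summits was 35.7 and was matched in replicate 1 alone (22.4). The second syd-2 summit, of 36.7 in an intron, holds a SOX core. No ranked summit was listed at rpm-1, the ubiquitin ligase gene that limits synapse growth.

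Of the fusion genes, 2 of 4 (50%) had a ranked summit, beside 53% of all genes. At snb-1, the synaptobrevin gene, a summit 317 bp upstream had a signal of 26.1 in replicate 1 and 24.2 in replicate 2 (25.2 ± 1.36, SD, n = 2), and 47.3 in the list of both. At unc-18, the Munc18 gene, the only summit had a signal of 16.4 in replicate 1 and 17.7 in replicate 2, and 34.7 in the list of both. It lies 1738 bp upstream of unc-18, nearer to the 5′ end of stn-2, and 47 bp from the tRNA-Glu gene rte-3. The syntaxin gene unc-64 and ric-4, which encodes the SNARE that pairs with syntaxin, had no ranked summit.

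All 3 calcium channel genes had ranked summits, 8 in total, and none was thresholded. Their median length searched was 20.6 kb, and 85.3% of all genes with more than 20 kb searched had a ranked summit. The strongest, of 60.4, lay 3480 bp upstream of egl-19, the L-type channel gene, and is the summit whose sequence holds CATTGT. Its signal was 36.5 in replicate 1 and 24.98 in replicate 2 (30.7 ± 8.12, SD, n = 2), with an IDR of 22.4%, and its nearest 5′ end is that of C48A7.16. Another 2 egl-19 summits, of 46.01 and 35.1, lay in introns. Of the 4 summits in unc-2, the channel gene for presynaptic release, the strongest was 52.3, with 38.3 in replicate 1 and 18.3 in replicate 2. The other 3 unc-2 summits were between 33.0 and 39.5, and the highest of them holds a SOX core. At unc-36, the auxiliary subunit gene, a summit of 51.6 lay 742 bp upstream and was matched in replicate 1 alone (31.6).

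Of the vesicle cycle genes, 6 of 7 (85.7%) had a ranked summit, beside 53% of all genes and 63.8% of those with 11 to 14 kb searched. The median length searched was 13.1 kb for this role. There were 11 summits in total, with a median of 39.4. After unc-104 the strongest was a summit of 64.7 upstream of unc-57, the endophilin gene, with 25.02 in replicate 1 and 35.1 in replicate 2 (30.1 ± 7.16, SD, n = 2) and an IDR of 6.96%. It lies 2839 bp from the unc-57 5′ end and 556 bp from that of xnp-1, and a second summit of 43.1 lies 46 bp from the xnp-1 5′ end. At aex-3, the gene for the exchange factor that activates RAB-3, 3 summits had signals of 45.9, 39.4 and 34.9, each matched in both replicates. The strongest of them, in a coding exon, holds a SOX core. Single summits were listed in introns of unc-26, the synaptojanin gene (38.6), and unc-11, the AP180 clathrin adaptor gene (38.7). That in unc-26 has 53% of its windows of 36 bases repeated in the genome. Of the 39 summits at the listed genes, 6 had any such window, and the shares at the others were 64.5% at unc-104, 37.3% at cat-1, 33.1% and 0.602% at the summits shared by unc-17 and cha-1, and 13.3% at unc-18. The single rab-3 summit, of 34.4 in a coding exon of this vesicle GTPase gene, was the only 1 of the 39 with no summit within 100 bp in either replicate's list. The synaptotagmin gene snt-1 had no ranked summit.

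Of the transmitter identity genes, 5 of 9 (55.6%) had a ranked summit, beside 53% of all genes, with 5 distinct summits. After cat-1 the strongest was a summit of 54.7 upstream of cat-2, the tyrosine hydroxylase gene of dopamine neurons, with 30.1 in replicate 1 and 24.7 in replicate 2 (27.4 ± 3.87, SD, n = 2). It lies 2450 bp from cat-2 but 173 bp from the 5′ end of scc-2. At tph-1, the tryptophan hydroxylase gene of serotonin neurons, a summit of 48.5 lay 3713 bp upstream, with 20.03 in replicate 1 and 23.6 in replicate 2, nearer to rol-8, and this summit holds a SOX core. The acetylcholine genes unc-17 (vesicular transporter) and cha-1 (choline acetyltransferase) overlap and share the same 2 summits, of 41.8 and 33.8, so they are not independent counts. The GABA genes unc-25 (glutamate decarboxylase), unc-47 (vesicular transporter) and unc-46 (sorting of that transporter) had no ranked summit, and neither had the vesicular glutamate transporter gene eat-4. In the list of both replicates, the ranked summits of this role thus lay at monoamine and acetylcholine genes. In the replicates' own ranked lists, the strongest unc-47 summit was 20.3 in replicate 1 and 24.3 in replicate 2. The strongest at unc-17 and cha-1 were 23.8 and 20.2, in the same order. At unc-25, unc-46 and eat-4 the values were lower than these where a summit was listed. A difference between transmitters was not tested. Of the monoamine summits only that of cat-1 has a 5′ end of the listed gene as its nearest.

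None of the 3 dense core vesicle genes had a ranked summit, beside 53% of all genes. They are unc-31 (the CAPS release factor), egl-3 (a proprotein convertase) and egl-21 (a carboxypeptidase), of which the last 2 process neuropeptides. Of the adhesion genes, nrx-1 (neurexin) had a single intronic summit of 34.0, matched in replicate 2 alone (22.9), and nlg-1 (neuroligin) had none. All 12 genes without a ranked summit in the series list had one in at least 1 replicate's own, longer ranked list, 10 of them in replicate 1 and 11 in replicate 2. The strongest of these replicate values was 22.6 for nlg-1 in replicate 1 and 24.6 for egl-3 in replicate 2. By the replicates' own ranked lists, 91.4% of the 35 genes in replicate 1 and 97.1% in replicate 2 had a summit, beside 87.6% of all genes in replicate 1 and 87.8% in replicate 2.

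**Figure D2:**
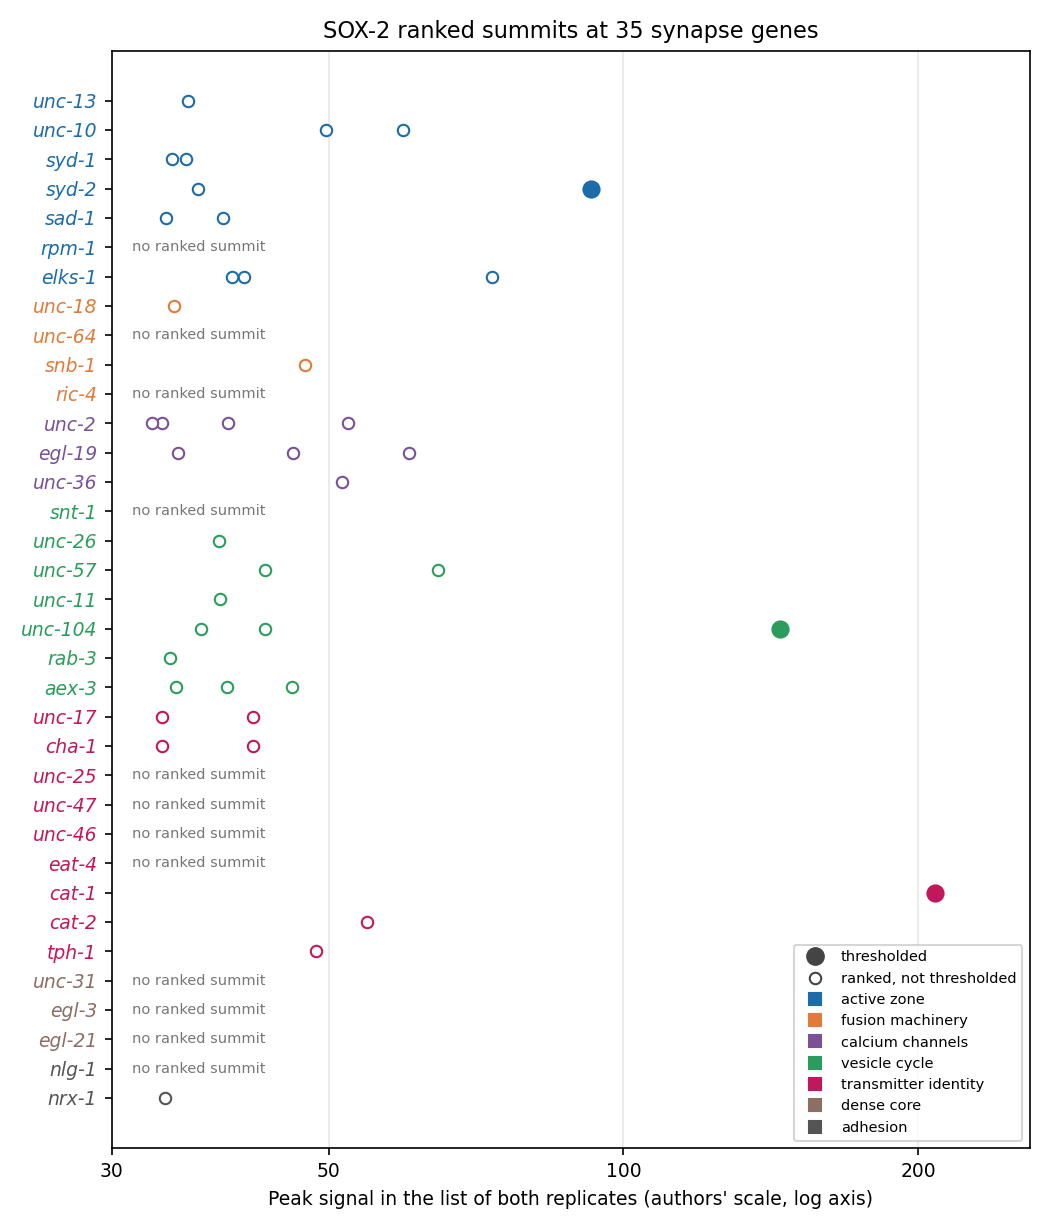
Peak signal of each ranked summit at each of the 35 genes, in the list made from both replicates (horizontal log axis, the authors' scale), with genes down the page grouped and coloured by role. Filled points are thresholded, and 12 genes have no ranked summit. Apart from cat-1, unc-104, syd-2 and elks-1, all summits lie at or under 64.7.

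The active zone genes had 0.952 distinct summits per 10 kb of searched sequence, the vesicle cycle genes 1.11 and the transmitter identity genes 0.562. The smaller roles had 0.842 (calcium channels), 0.406 (fusion) and 0.233 (adhesion). The median signals were 39.5 for active zone, 39.4 for vesicle cycle and 48.5 for transmitter identity summits. Each of these 3 roles had 1 gene with a thresholded summit, beside 7.09% of all genes. The median length searched per gene was 15.3 kb for active zone, 13.1 kb for vesicle cycle and 10.2 kb for transmitter identity genes. With 7 to 9 genes per role and 1 group of samples, no test of these differences was made.

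Longer genes are searched over longer sequence, and the median length searched was 12.6 kb for the synapse genes, beside 10.001 kb over all genes. Of genes with up to 11 kb searched, 5 of 10 synapse genes (50%) had a ranked summit, beside 49.6% of all genes. Between 11 and 14 kb the shares were 66.7% of synapse genes and 63.8% of all genes. Between 14 and 20 kb they were 71.4% of synapse genes and 70.3% of all genes, and above 20 kb 83.3% and 85.3% in the same order. In every class the shares lay closer together than the 65.7% of synapse genes and 53% of all genes did without classes. The classes hold only 10, 12, 7 and 6 synapse genes, and the part of searched length in the shares was not tested. Per 10 kb, the synapse genes had 0.714 ranked summits and all genes 0.848. With 2000 bp around each 5′ end in place of 5000 bp, 20 synapse genes (57.1%) had a ranked summit and 3 (8.57%) a thresholded one, beside 33.7% and 3.92% of all genes. Per 10 kb of this shorter search, the synapse genes had 0.7942 ranked summits and all genes 0.8295. These 2000 bp shares were not split by the length searched.

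**Figure D3:**
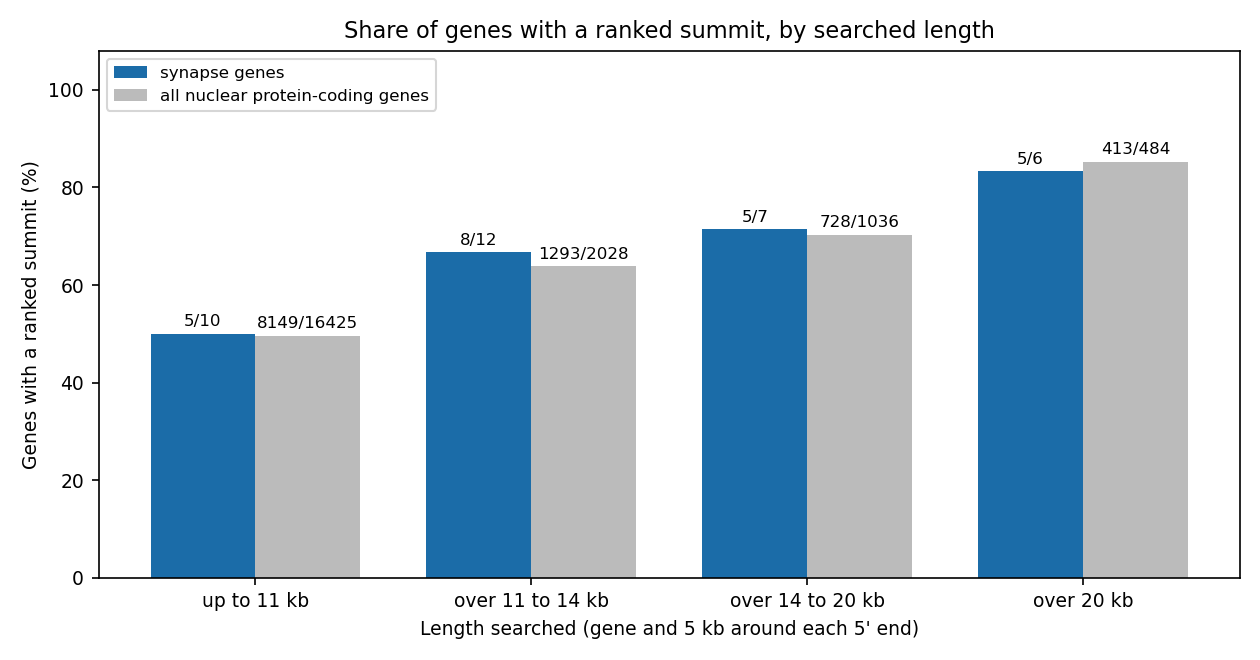
Percentage of genes with a ranked summit, for synapse genes (blue) and all nuclear protein-coding genes (grey), in 4 classes of the length searched per gene. Both shares rise with length, and within each class they lie close to each other (50% and 49.6% up to 11 kb, 83.3% and 85.3% above 20 kb).

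By chromosome, ranked summits were found at 7 of 8 synapse genes on X, 5 of 6 on II, 5 of 7 on IV, 3 of 3 on I, 2 of 6 on V and 1 of 5 on III. Over all genes the shares were 57.8% on X, 52.5% on II, 48.6% on IV, 63.5% on I, 43% on V and 61.4% on III. On chromosome III the only synapse gene with a summit was unc-36, while unc-64, unc-25, unc-47 and eat-4 had none. A further 80 synaptic genes, listed by pathway and treated the same way, gave 54 with a ranked summit (67.5%) and 6 with a thresholded one (7.5%), beside 53% and 7.09% of all genes. By the length searched, the ranked shares of these genes were 50% up to 11 kb, 73.7% between 11 and 14 kb, 81.2% between 14 and 20 kb and 90.9% above 20 kb, beside 49.6%, 63.8%, 70.3% and 85.3% of all genes. By role those with a ranked summit were 6 of 7 active zone, 11 of 13 release and priming, 11 of 13 vesicle cycle, 6 of 11 transmitter synthesis and transport, 15 of 28 receptor, 2 of 5 dense core and 3 of 3 adhesion genes. These counts by role were not split by the length searched.

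The strongest peak among those 80 genes lay in an intron of unc-41, which encodes the stonin that helps recover vesicles, with 93.2 in replicate 1 and 108.5 in replicate 2 (100.8 ± 10.8, SD, n = 2) and 201 in the list of both. It was followed by sax-7 (97.0), an adhesion molecule gene, and klc-2 (96.4), a kinesin light chain gene. The G protein regulator gene egl-10 had 95.2, the protein kinase C gene pkc-1 81.8 and the kinesin heavy chain gene unc-116 77.1. In replicates 1 and 2, in that order, the values were 41.5 and 57.4 for sax-7 and 64.25 and 31.7 for klc-2. They were 58.7 and 29.1 for egl-10, 54.4 and 28.9 for pkc-1, and 25.02 and 63.5 for unc-116. The egl-10 and pkc-1 summits lie 2663 and 4277 bp upstream of these genes, and those of egl-10 and unc-116 hold a SOX core. Only the unc-41 and sax-7 peaks were also in the conservative list. None of the 6 has a repeated window of 36 bases, unlike the peaks in cat-1 and unc-104. The tRNA gene nearest to any of the 6 is 34177 bp from its summit, at pkc-1.

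The 39 distinct summits at the synapse genes had a median signal of 39.9, beside 40.7 over all 8486 nuclear ranked summits. Of the 39, 27 (69.2%) had an IDR above 50%, beside 70% of all. A promoter-proximal position was held by 13 (33.3%), beside 35.2% of all, and an intronic one by 19 (48.7%), beside 23.5%. Of the 39, 24 lay inside one of the listed genes, which are searched over their whole length, and the part of gene length in the intronic share was not tested. CATTGT or CTTTGT was held within 50 bp on either strand by 5 summits (12.8%), beside 16.6% of all ranked summits, and CATTGT alone by 10.3%, beside 10%. For 8 of the 39 the nearest protein-coding 5′ end belonged to a gene outside the list.

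**Figure D4:**
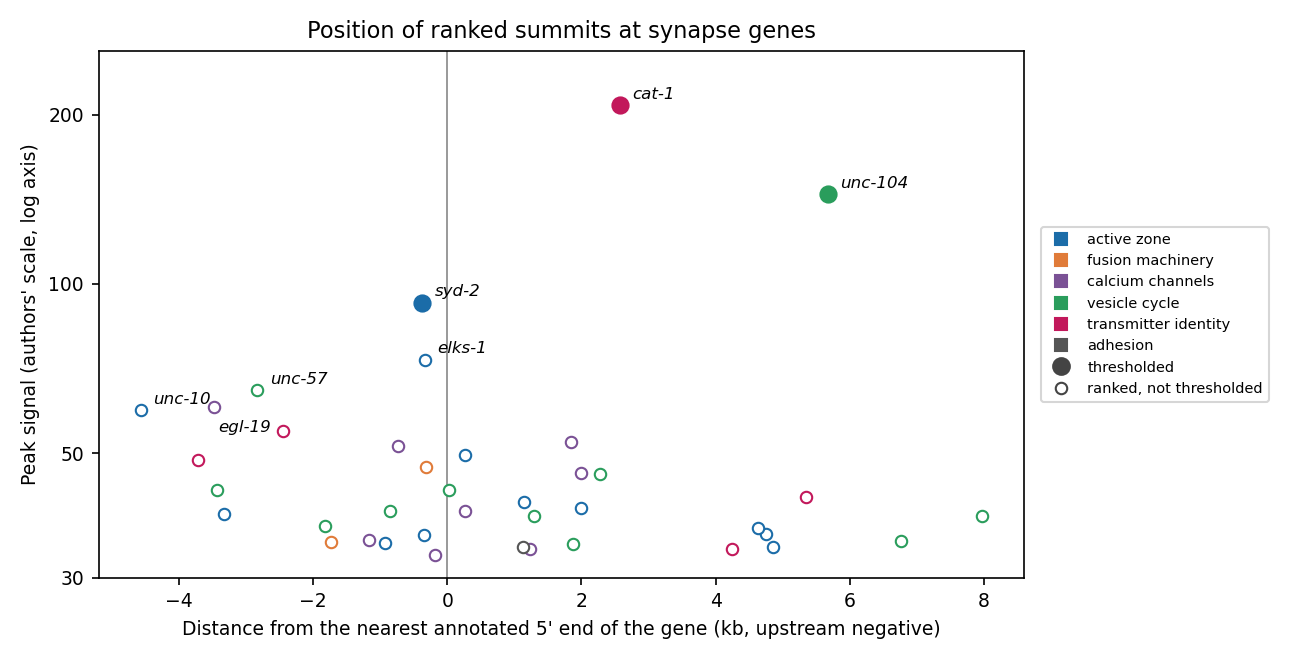
Signal of each of the 39 distinct summits in the list of both replicates (vertical log axis, the authors' scale) against its distance in kb from the nearest annotated 5′ end of the synapse gene (upstream negative), coloured by role. The 2 highest points, cat-1 and unc-104, lie 2570 and 5677 bp downstream, whereas syd-2 and elks-1 lie 373 and 340 bp upstream.

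The farthest upstream summit inside the 5000 bp limit was that of unc-10 at 4574 bp, with a signal of 59.6. The nearest outside were summits 5663 bp upstream of a 5′ end of nrx-1 (35.5) and 5731 bp upstream of one of sad-1 (36.05). Another lay 5893 bp downstream of a 5′ end of unc-57 (42.3). The 5′ ends nearest to these summits were those of lig-1, H06A10.1 and T04D1.2, in the same order. Of the 7 tRNA genes and tRNA pseudogenes in the searched sequence, which belong to cat-1, unc-104 and unc-18, 3 had a ranked summit within 500 bp and 4 had none.

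Both replicates listed a ranked summit within 100 bp of 28 of the 39 (71.8%), beside 59.9% of all nuclear ranked summits. The median of all ranked peaks was 17.8 in replicate 1 and 16.8 in replicate 2. Across these 28 summits, which share both libraries and are no independent samples, Spearman's rho between the replicates was 0.593, given as a description.

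**Figure D5:**
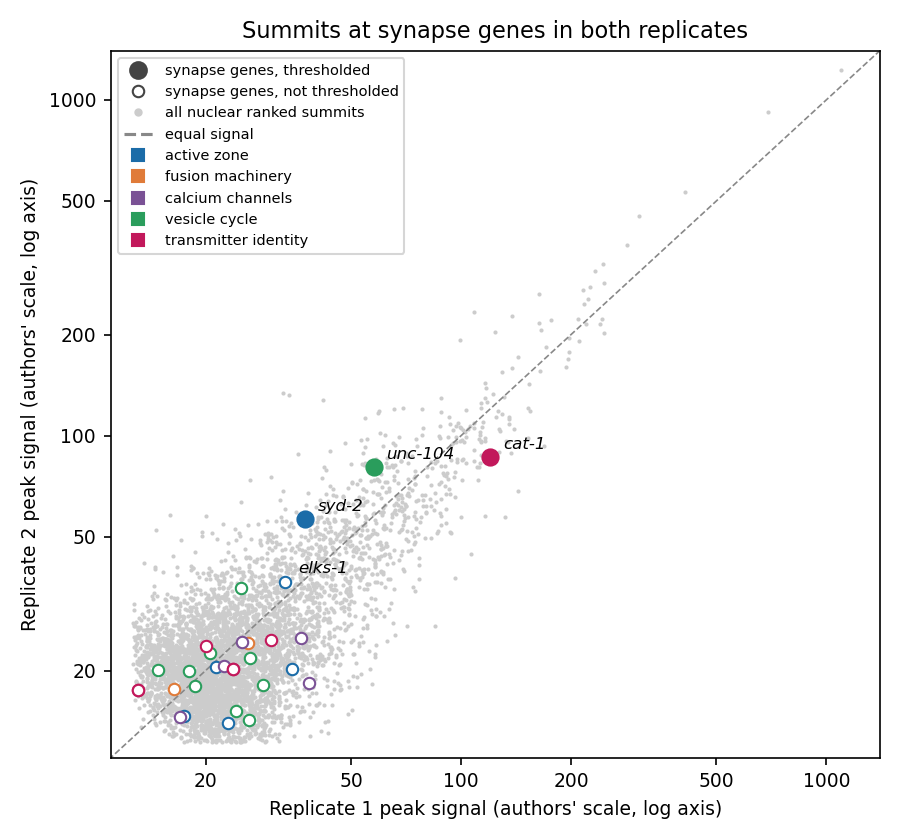
Signal in replicate 1 (horizontal) and replicate 2 (vertical), both on log axes and the authors' scale, for the 28 synapse gene summits with a ranked summit in both replicates (coloured by role) over all 5082 such nuclear ranked summits (grey). The 3 thresholded summits stand away from the other synapse gene summits, of which that of elks-1 is the nearest to them.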

How the data were processed

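Peaks were called by the authors on the ce11 build, per the labels. Not given in the sources used here are the aligner, the caller, and the treatment of reads that match several places. The signal of each peak is the authors' deposited value on a scale that is not given, so no list is called higher than another, and the SD between replicates includes any difference in scale or depth. The deposited ranked lists also give the −log10 of the IDR, and every thresholded peak has a −log10 IDR of at least 2. The lists hold no read counts, so library depth is unknown. In the ranked lists, 4 further signal columns name no sample and were left out.

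Summits were placed on Ensembl release 115 genes, and tRNA pseudogenes were taken from the RefSeq annotation. Replicate values are those of the nearest summit within 100 bp in that replicate's ranked list, and the list of both replicates gives a single value with no SD. Where no summit of a replicate was listed, no value was assigned. Repeats were counted as windows of 36 bases, within 100 bp of a summit, that occur more than once in the nuclear genome on either strand. The rule that assigns summits to genes was tested on simulated summits placed inside and outside the searched sequence, and the repeat counts were not tested in this way. Python 3.11.15 and SciPy 1.17.1 were used.

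The 35 genes, the roles and the list of 80 further genes were chosen with earlier results of these data known. Named are all 35 genes, in more detail those with a thresholded summit and the strongest of each role, and further genes with a thresholded summit. No test was made, as there is 1 group. Alternatives changed the search length, the lists, the motif and the treatment of tRNA genes and repeats.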

Additional observations from a re-analysis of the deposited data

How the results depend on the processing

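The number of synapse genes with a thresholded summit was 3 within 2000 and 1000 bp, in the conservative list and in each replicate's own list, 2 inside genes alone, 2 without summits near tRNA genes, and 4 at an IDR of at most 0.05. Chosen after seeing the data, leaving out summits near tRNA genes and tRNA pseudogenes gave 1, and leaving out summits with repeated windows also gave 1, in both cases syd-2. Genes with a ranked summit numbered 15 when only peaks above the list's median signal were used, 25 in the other ranked list, and 32 to 34 in a single replicate's list. Shares over all genes were not counted for the 1000 bp, inside-gene, IDR 0.05, repeated-window and median-signal alternatives. They were also not counted for the conservative and the other ranked list. Counts under these alternatives describe the processing and give no comparison of synapse genes with other genes. Ranked summits numbered 24 inside genes alone and 114 to 151 when a replicate was left out, because each replicate's own list is longer. By role, genes with a thresholded summit numbered 1 for active zone, 1 for vesicle cycle, 1 for transmitter identity, and 0 for fusion, calcium channel and adhesion genes. Within 2000 bp, 3 transmitter identity genes kept a ranked summit, and the strongest egl-19 value was 46.01. The strongest nrx-1 value was 34.1 in the other ranked list. Promoter-proximal summits numbered 8 with limits of 500 bp upstream and 100 bp downstream. Thresholded summits per 10 kb were 0.0550 for synapse genes and 0.0658 for all genes. No paired analysis was possible because the series has 1 group. With the depth unknown, a gene without a listed summit had none detectable in these lists, which does not show that it is unbound.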
